A study of Homo sapiens with 6 samples.

Results

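The 9 antigen presentation genes described here are HLA-B, HLA-C, B2M, TAP1, PSMB9, HLA-DRA, CD74, NLRC5 and CIITA, and their accessible regions were read from an ATAC-seq study of A375, an established human melanoma line. Every region that the authors' tables name for 1 of these genes was taken, at any distance, which gave 97 pairs of a gene and a region. One region was listed for both TAP1 and PSMB9, so the pairs stood for 96 regions, of 226920 in the study. The cells had been given recombinant HMGA1 for 18 h, had been given it for 2 h, or were untreated (mock), with 2 libraries in each of the 3 groups and no other agent or engineered allele named in the labels. HMGA1 is an architectural chromatin protein that binds AT-rich DNA, and the study asks what its uptake does to melanoma chromatin. Cells were frozen after treatment. The labels give no time for the mock cells, so HMGA1 exposure and time in culture cannot be told apart. The labels describe the replicates as biological but not whether the cultures were separate, so the p-values reflect only how far these libraries differed, which may be technical. Signal is an average over the cells of a library, so more open cells and more open copies per cell cannot be told apart.

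MHC class I molecules show peptides from inside the cell to CD8 T cells, and nearly every nucleated cell makes them. Each holds a heavy chain such as HLA-B or HLA-C, the light chain beta-2-microglobulin (B2M) and a peptide, which is cut by the immunoproteasome (PSMB9 is 1 catalytic subunit) and carried into the endoplasmic reticulum by the TAP transporter (TAP1 is a subunit). MHC class II molecules, with the alpha chain HLA-DRA, are filled in endosomes after the invariant chain CD74 has guided them there. NLRC5 and CIITA are related co-activators without a DNA-binding domain of their own: NLRC5 acts mainly on class I genes and CIITA on class II genes and CD74, through factors bound at conserved promoter boxes. Interferon gamma raises most of these genes, and melanoma cells can carry class II molecules as well as class I.

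The promoters are shown for the elements known from these genes, of which only the CCAAT box was found in all the windows printed, not always near the start. Most of each window lay inside an accessible region. Of the 9 genes, 6 had a promoter in the RefSeq table used here (build GRCh38.p14). Promoters of NLRC5, CIITA and HLA-DRA were not used here. The 250 bases before each RefSeq start are given 5′ to 3′ on the gene's strand. Capitals mark matches, on either strand, to a CCAAT box (CCAAT), the core of a cAMP response element (TGACG), an interferon regulatory factor element (AANNGAAA), an NF-kB element (GGGA, any 4 bases, CC) or a STAT element (TTCNNNGAA). Matches that overlap run together, as the 2 interferon regulatory factor elements do in B2M and in TAP1.
CD74, chr5:150412911-150413160, minus strand: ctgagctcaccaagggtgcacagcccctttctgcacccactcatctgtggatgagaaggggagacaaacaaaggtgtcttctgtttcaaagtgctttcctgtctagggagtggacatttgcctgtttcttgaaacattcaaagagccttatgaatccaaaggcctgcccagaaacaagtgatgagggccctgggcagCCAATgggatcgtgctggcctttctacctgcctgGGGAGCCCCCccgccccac
HLA-B, chr6:31357180-31357429, minus strand: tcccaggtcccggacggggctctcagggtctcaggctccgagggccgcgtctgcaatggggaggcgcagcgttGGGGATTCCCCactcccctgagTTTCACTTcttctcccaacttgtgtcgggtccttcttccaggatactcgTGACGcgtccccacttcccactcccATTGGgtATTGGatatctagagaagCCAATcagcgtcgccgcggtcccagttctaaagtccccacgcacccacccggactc
HLA-C, chr6:31272093-31272342, minus strand: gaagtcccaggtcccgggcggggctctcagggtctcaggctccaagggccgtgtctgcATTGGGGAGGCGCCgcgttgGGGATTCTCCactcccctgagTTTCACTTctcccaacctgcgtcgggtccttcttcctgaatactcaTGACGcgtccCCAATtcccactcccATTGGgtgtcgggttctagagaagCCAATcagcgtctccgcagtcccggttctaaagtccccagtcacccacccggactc
B2M, chr15:44711267-44711516, plus strand: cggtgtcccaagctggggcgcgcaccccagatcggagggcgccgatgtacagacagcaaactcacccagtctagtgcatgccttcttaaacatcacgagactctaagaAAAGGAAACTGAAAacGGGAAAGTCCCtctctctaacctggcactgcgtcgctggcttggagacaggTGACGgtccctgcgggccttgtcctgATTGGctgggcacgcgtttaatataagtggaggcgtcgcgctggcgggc
TAP1, chr6:32853705-32853954, minus strand: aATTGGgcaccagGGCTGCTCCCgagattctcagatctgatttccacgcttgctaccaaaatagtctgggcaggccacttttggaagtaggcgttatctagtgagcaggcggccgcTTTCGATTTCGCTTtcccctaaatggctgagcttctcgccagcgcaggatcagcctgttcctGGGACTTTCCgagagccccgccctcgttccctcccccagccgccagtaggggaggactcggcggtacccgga
PSMB9, chr6:32853942-32854191, plus strand: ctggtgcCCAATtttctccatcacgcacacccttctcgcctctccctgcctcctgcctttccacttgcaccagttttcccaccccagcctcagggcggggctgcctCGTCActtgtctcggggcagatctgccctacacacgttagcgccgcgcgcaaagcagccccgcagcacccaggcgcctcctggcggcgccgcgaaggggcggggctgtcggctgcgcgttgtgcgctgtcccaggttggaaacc

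The CCAAT box was found in 6 of the 6 windows, against 32% of 35116 windows of the same length in the RefSeq table. The NF-kB element was in 5 of 6 (22.6% of all windows), the cAMP response core in 4 of 6 (21.2%), the interferon regulatory factor element in 4 of 6 (20.3%) and the STAT element in 0 of 6 (6.57%). Because the motifs were chosen as elements known from these genes, the shares over all windows cannot test whether these promoters are enriched for them. HLA-B and HLA-C are not independent examples, since their windows were identical at 226 of 254 aligned positions (89.0%). CD74 had a CCAAT box 53 to 49 bases before its start and an NF-kB match 19 to 10 bases before it, and none of the 3 other motifs in this window. TAP1 and PSMB9 are head to head: their RefSeq starts were 488 bases apart, and both windows overlapped by 13 bases. Their CCAAT matches lie in this overlap, at the end of each window farthest from the start. They are the same bases read on both strands, so the count of 6 of 6 windows does not show a CCAAT box near every start. The median A+T content of the 6 windows was 39.6% (range 32.8 to 45.6%), against 42% over all windows, and CD74 had the highest of the 6. Of all windows 58.4% had a lower A+T content than CD74. The longest run of A or T in the CD74 window was 4 bases, against a median of 6 over all windows. These are matches of letters in the reference sequence and do not show that a factor was bound.

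The values are the authors' own. Each table gives 1 mean signal per region over the 6 libraries (read counts divided by size factors), a log2 fold change with its standard error (SE), and a DESeq2 p adjusted over the tested regions, where a region counts as called at an adjusted p under 0.05. No value per library was used and the depth of each library is unknown, so precision is given by the SE. The authors' filter left weak regions untested, by a limit on the mean over all libraries. That mean takes no account of the groups, but the limit itself differed between the comparisons. The limit was 56.2 at 2 h against mock, where 34 of the 96 regions were tested. It was 101 for 18 h with mock (28 tested) and 41.7 for 18 h with 2 h (49 tested). The comparisons share libraries: for each of the 96 regions, taking the 2 h from the 18 h value against mock returned the third comparison. The labelled cell type was checked at gene starts: regions within 1 kb were listed for 4 of 8 melanocyte genes, with mean signals of 694 at MITF, 353 at S100B, 298 at PMEL and 63.8 at SOX10, and none for MLANA, TYR, DCT or TYRP1. For leukocytes, which carry the most class II, PTPRC, CD3E and MS4A1 had none, and CD14, CD79A, ITGAX and LYZ had 24.2 to 210. The 4 fibroblast and 4 keratinocyte markers had start regions at PDGFRB, LUM, KRT5 and KRT14, at 26.9 to 448. Few of the marker start regions were tested. At 18 h against 2 h these were 5 melanocyte, 2 leukocyte, 2 fibroblast and 1 keratinocyte region, with no more in either other comparison. None was called in any comparison, which so few tested regions cannot make informative. By unadjusted p under 0.05 (DESeq2) there were 2 melanocyte start regions (2 h against mock) and 1 fibroblast start region (18 h against 2 h). Away from starts, at 18 h against 2 h, the authors' deposited table called 3 of 12 tested keratinocyte regions lower. It also called 1 of 53 melanocyte, 1 of 35 leukocyte and 1 of 24 fibroblast regions lower, as it did 1 of 12 fibroblast regions at 18 h against mock. Of all tested regions 3.48% were called at 18 h against 2 h, mostly lower, and 0.121% at 18 h against mock, and the part of such cells in the values below was not tested.

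Every gene had 1 region within 1 kb of its listed start, and these regions were open to very different degrees. All 96 regions span 501 bases, so their mean signals can be compared, although similar sequence and many alleles at HLA genes can cost reads and the authors' handling of reads that match several places is not given in the sources used here. In the order of mean signal the start regions were CD74 (1181), B2M (774), TAP1 (584), PSMB9 (498), CIITA (446), HLA-C (391), NLRC5 (328), HLA-DRA (192) and HLA-B (190). The PSMB9 region in this order is also listed for PSMB8 and lies outside the RefSeq span of PSMB9. The CD74 start region was more open than 97.7% of 9957 regions in the study that overlap a gene start, whereas those of HLA-DRA and HLA-B exceeded 26.5% and 26.4% of them. The median over these 9957 regions was 377, and 39.3 over all regions. With no spread between libraries given for the mean signal, no order between neighbours in this list was tested. The highest signal of all 96 regions, 1394, was at CIITA, 5.55 kb before the start listed in the authors' tables and inside the RefSeq span of the gene.

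**Figure D1:**
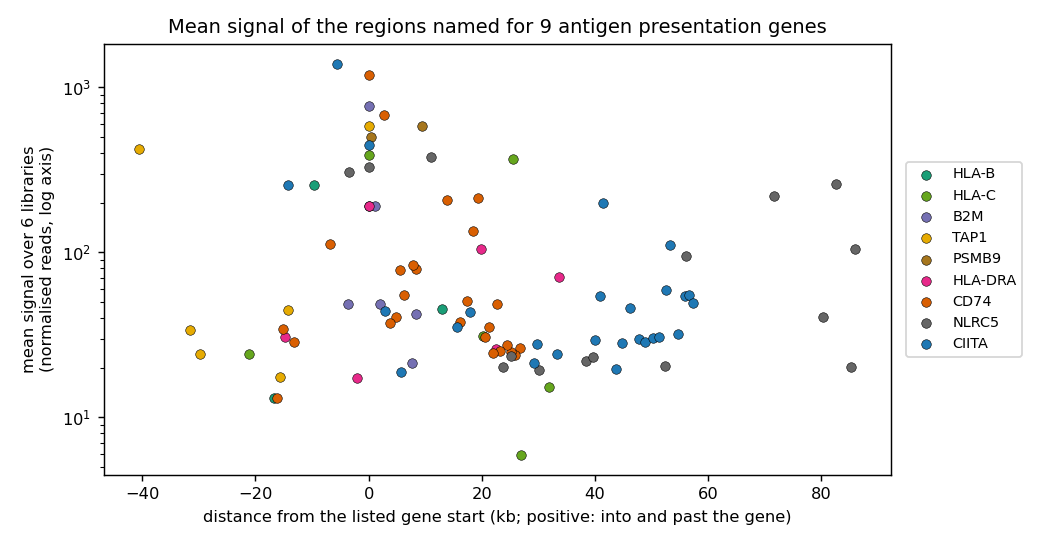
Mean signal over the 6 libraries (normalised reads, log axis) of each region against its distance in kb from the gene start listed by the authors, positive values lying in the direction of transcription; each point is 1 region, coloured by gene. Signals of 190 to 1181 stand at or near the starts, and CIITA has a region of 1394 at 5.55 kb before its listed start. Some regions farther away are of like strength, such as 423 at 40.5 kb before the TAP1 start. Others are 369 at 25.5 kb past the HLA-C start and 376 at 11.0 kb past the NLRC5 start. CIITA and NLRC5 have long runs of mostly weak regions inside the gene.

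The regions were spread unevenly over the genes. CD74 and CIITA had 26 each, NLRC5 15, HLA-C, B2M, TAP1 and HLA-DRA 6 each, HLA-B 4 and PSMB9 2. Of the 96 regions 54 touched the RefSeq span of their gene, 18 lay before it and 24 past it, and 28 lay within 10 kb of the listed start. CIITA and NLRC5, both long genes, held 25 and 14 of their regions inside the gene. CD74 had 8 inside its short span, 14 past its end and 4 before its start. The regions named for a gene can lie as far as 86.0 kb from its start, and such a name does not show that the region acts on the gene. Their median mean signal was 43.1, close to the lowest limit for testing.

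For 2 genes the listed start differs from the RefSeq one by about 10 kb. CIITA has alternative promoters, and its start in the authors' tables lies 10991 bases inside the RefSeq span (chr16:10866206-10943021). The listed PSMB9 start lies 10057 bases before the RefSeq start, so that the region given as its nearest (chr6:32844503-32845004, at 368 bases) is also listed for PSMB8 at a distance of 0. The region that lies 48 bases short of the RefSeq PSMB9 start is the one shared with TAP1 (chr6:32853643-32854144). For the other 7 genes both starts agreed within 274 bases.

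The first comparison asked whether accessibility at these genes changed within 2 h of HMGA1. In the authors' deposited table DESeq2 called 0 of 34 tested regions at 2 h against mock, while 3 reached an unadjusted p under 0.05. Of all tested regions 10.0% reached such a p. Calls made up 1.28% of them, so a list of this size would hold few calls at that rate. The median log2 fold change of the 34 regions was -0.09 in the authors' deposited table, against -0.06 over all 86137 tested regions and -0.11 over the tested regions within 1 kb of a gene start. Values below are as deposited, without taking off these medians, unless stated.

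Class I genes showed no called change at 2 h. All 4 HLA-B and all 6 HLA-C regions were below 0, and 3 of 6 B2M regions, most of them by less than their SE. At the start regions the log2 fold changes of 2 h against mock in the authors' deposited table were -0.10 ± 0.18 (SE) for HLA-B, -0.18 ± 0.12 for HLA-C and -0.09 ± 0.10 for B2M, with adjusted p from 0.716 to 0.934 (DESeq2). The 95% intervals ran from -0.45 to 0.25 for HLA-B and from -0.28 to 0.11 for B2M, and changes inside these bounds are compatible with the estimates. The approximate group means at the B2M start, worked out from the mean signal and both fold changes, were 781 at 18 h, 748 at 2 h and 794 in mock, and those at the HLA-C start 392 at 18 h, 366 at 2 h and 414 in mock. The peptide supply genes were alike in this respect: the authors' deposited table gave -0.04 ± 0.11 for the region shared by TAP1 and PSMB9, and -0.14 ± 0.11 for the one listed at the PSMB9 start. NLRC5, the class I co-activator, had 0.0048 ± 0.13 at its start (95% interval -0.26 to 0.27) and -0.22 ± 0.16 at a region 82.6 kb into the gene in the authors' deposited table. Weak regions gave the wider values, such as 0.72 ± 0.34 (unadjusted p = 0.0323, two-sided, DESeq2) 3.70 kb before the B2M start, -0.69 ± 0.34 (unadjusted p = 0.0457) 2.09 kb past that start and -0.63 ± 0.36 at 13.0 kb past the HLA-B start in the authors' deposited table. All 3 had a mean signal under the limit and were not tested.

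Of the 9 start regions the lowest values of 2 h against mock were at the class II genes HLA-DRA and CD74. In the authors' deposited table the HLA-DRA start region had -0.30 ± 0.18 (SE; adjusted p = 0.604) and the CD74 start region -0.20 ± 0.08 (adjusted p = 0.267, unadjusted p = 0.0123, DESeq2). Neither was called. The approximate group means at the HLA-DRA start were 199 at 18 h, 168 at 2 h and 207 in mock. Of the 9 start regions, 7 were below 0 in this comparison, with a median of -0.10, close to the -0.11 over all tested regions within 1 kb of a start. With the median of such regions taken off, HLA-B, B2M and the region of TAP1 and PSMB9 lay just above 0.

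**Figure D2:**
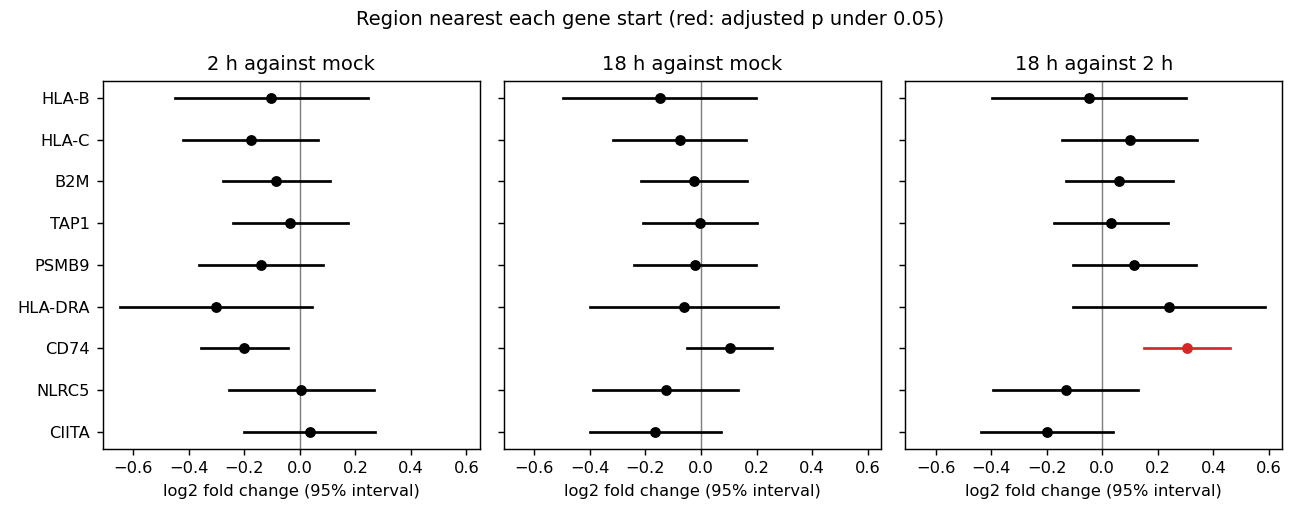
Log2 fold change (points) with its 95% interval (lines) for the region nearest each of the 9 listed gene starts, in the authors' 3 comparisons; red marks an adjusted p under 0.05. The PSMB9 region shown is also listed for PSMB8. All intervals of 2 h and 18 h against mock reach across 0 except that of CD74 at 2 h (-0.36 to -0.04), and CD74 at 18 h against 2 h (0.15 to 0.46) is the called one.

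CIITA leaned the other way at 2 h. Of its 26 regions, 24 had a log2 fold change above 0 at 2 h against mock, with a median of 0.37 in the authors' deposited table. Over all regions of the study 50.2% were above 0, and 57.8% of those under the signal limit. Only 6 of the 26 were tested, and 0 were called. In the authors' deposited table the strongest CIITA region (chr16:10871144-10871645) stood at 0.18 ± 0.07 (SE; adjusted p = 0.295). Its approximate group means were 1363 at 18 h, 1495 at 2 h and 1324 in mock. It is the 1 member whose call depended on the scale: with fold changes centred within 20 bins of mean signal it stood at 0.27 (adjusted p = 0.0170) and was called. The CIITA start region had 0.04 ± 0.12 at 2 h against mock in the authors' deposited table. Inside the gene, at 52.6 kb from the listed start, a region had 0.75 ± 0.31 (adjusted p = 0.314), and an untested one at 29.8 kb had 1.30 ± 0.46 (unadjusted p = 0.00477), both in the authors' deposited table (DESeq2). The 21 CIITA regions over 10 kb into the gene had mean signals of 19.5 to 199, so that few reads stand behind most of them. Neighbouring regions of 1 gene share a locus and are not replicates, and 7 of the CIITA regions were also listed for DEXI, the next gene.

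**Figure D3:**
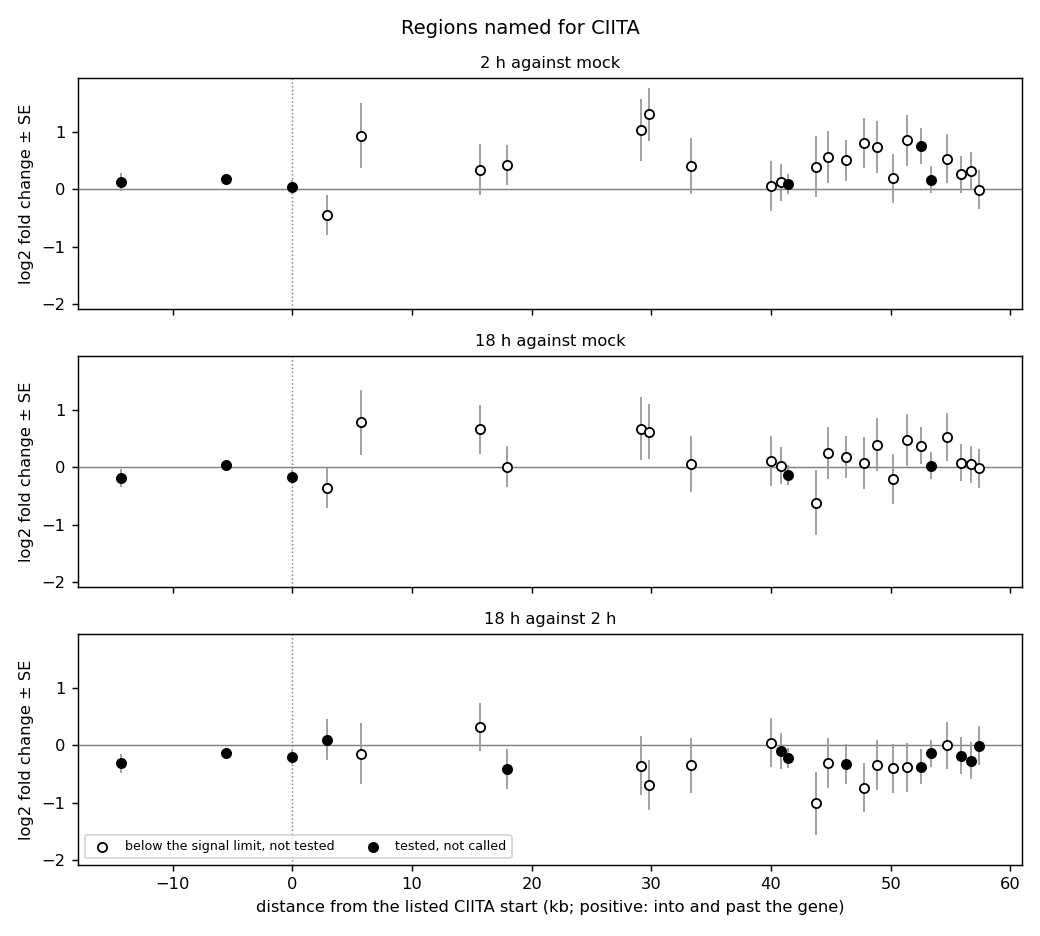
Log2 fold change ± SE of the 26 regions named for CIITA against distance in kb from its listed start, for each of the authors' 3 comparisons; open points lie under the authors' signal limit and were not tested. Most points lie above 0 at 2 h against mock (24 of 26) and below 0 at 18 h against 2 h (22 of 26), and none was called.

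The second comparison asked whether the genes differed from mock after the longer exposure. In the authors' deposited table DESeq2 called 0 of 28 tested regions at 18 h against mock, while 1 reached an unadjusted p under 0.05. Of all tested regions 0.121% were called and 7.89% had an unadjusted p under 0.05. The median over the 28 regions was -0.01 in the authors' deposited table, against -0.07 over all 55341 tested regions. At the 9 start regions the log2 fold change ranged from -0.16 (CIITA) to 0.10 (CD74), and the widest 95% interval bounds were -0.50 at HLA-B and 0.28 at HLA-DRA. B2M, with -0.02 ± 0.10 (SE), and the region shared by TAP1 and PSMB9, with -0.0041 ± 0.10, were the closest to 0 beside the PSMB9 region in the authors' deposited table (-0.02 ± 0.11). All 3 lay just above 0 once the table's median was taken off. HLA-B had -0.15 ± 0.18, HLA-C -0.08 ± 0.12, HLA-DRA -0.06 ± 0.17 and NLRC5 -0.13 ± 0.13 in the authors' deposited table.

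CD74 regions lay mostly above 0 at 18 h against mock (18 of 26), and so did those of CIITA (19 of 26, median 0.07). Over all regions 49.8% were above 0, made up of 56.0% of the untested and 30.5% of the tested. Of the tested CIITA regions 2 of 5 were above 0, with a median of -0.13, and of the tested CD74 regions 5 of 6, with a median of 0.15. NLRC5 had 5 of 15 above 0. The 1 tested member with an unadjusted p under 0.05 was a CD74 region 13.9 kb past the start, at 0.32 ± 0.16 (SE; adjusted p = 0.622, DESeq2) in the authors' deposited table. An untested region inside CD74, 5.56 kb past its start, had 0.66 ± 0.27 (unadjusted p = 0.0135) in the authors' deposited table. At TAP1, an untested region 29.8 kb before the start, with a mean signal of 24.1, had 0.99 ± 0.49 (unadjusted p = 0.0417) in the authors' deposited table.

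The third comparison, 18 h against 2 h, is the direct test of whether signal at 18 h differed from that at 2 h. Of 49 tested members 2 (4.08%) were called in the authors' deposited table, both of them CD74 regions and both higher at 18 h. Of all tested regions 3.48% were called in either direction and 0.498% were called higher, since 14.3% of the 3758 calls were higher. The median over the 49 regions was 0.08, against 0.01 over all 108134 tested regions and 0.05 over tested regions within 1 kb of a start.

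The called region at the CD74 start (chr5:150412568-150413069) holds the first bases of the gene and 159 of the 250 promoter bases printed above, the CCAAT box among them. Its approximate group means were 1293 at 18 h, 1048 at 2 h and 1203 in mock, so that 2 h was lowest and mock lay between both times. The log2 fold change of 18 h against 2 h was 0.30 ± 0.08 (SE), or 1.23-fold higher, with an adjusted p of 0.00702 (DESeq2) in the authors' deposited table. Its 95% interval was 0.15 to 0.46. Against mock the same region had 0.10 ± 0.08 at 18 h (adjusted p = 0.852) and -0.20 ± 0.08 at 2 h in the authors' deposited table, neither called. Start regions as a class lay slightly above 0 in this comparison, and with the medians of regions within and beyond 1 kb of a start taken off separately the CD74 value was 0.25 (adjusted p = 0.0445).

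The other called CD74 region (chr5:150398529-150399030) lay 13.9 kb past the start and 2.61 kb beyond the end of the RefSeq gene span (chr5:150401639-150412910, minus strand). The approximate group means were 254 at 18 h, 167 at 2 h and 203 in mock, in the same order as at the start. Signal at 18 h was 1.52-fold that at 2 h, with a log2 fold change of 0.60 ± 0.17 (SE; adjusted p = 0.0128, DESeq2; 95% interval 0.28 to 0.93) in the authors' deposited table. Neither comparison with mock called this region, with -0.28 ± 0.17 at 2 h (adjusted p = 0.630) in the authors' deposited table.

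Most of the other CD74 regions pointed the same way without being called. Of the 12 tested at 18 h against 2 h, 11 were above 0, 5 had an unadjusted p under 0.05 and the median was 0.33 in the authors' deposited table. Of all tested regions 51.9% were above 0 and 11.6% had an unadjusted p under 0.05. The 3 with an unadjusted p under 0.05 that were not called were a region 8.36 kb into the gene, with 0.64 ± 0.27 (SE; adjusted p = 0.231), one at 5.56 kb, with 0.59 ± 0.27 (adjusted p = 0.318), and one 6.83 kb before the start, with 0.55 ± 0.24 (adjusted p = 0.264, DESeq2), in the authors' deposited table. All 8 regions that touch the gene were above 0, from 0.09 to 0.64, the lowest at the second strongest region of the locus (mean signal 681, 2.69 kb into the gene, 0.09 ± 0.10) in the authors' deposited table. Of the 14 regions past the gene end 10 were above 0, and those farther than 20 kb from the start had mean signals of 23.8 to 48.4. The 2 called regions and their neighbours belong to 1 locus and share 2 libraries per group, so their shared direction is not independent evidence. Of 32 tested regions of another name within 100 kb of the CD74 start, 0 were called higher. Another 4 were called lower, named for RPS14 and NDST1, the nearest 56.6 kb away. Over all tested regions 0.498% were called higher and 3.48% in either direction. At that rate 32 regions would hold few or no higher calls, so their absence does not show a rise particular to CD74.

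**Figure D4:**
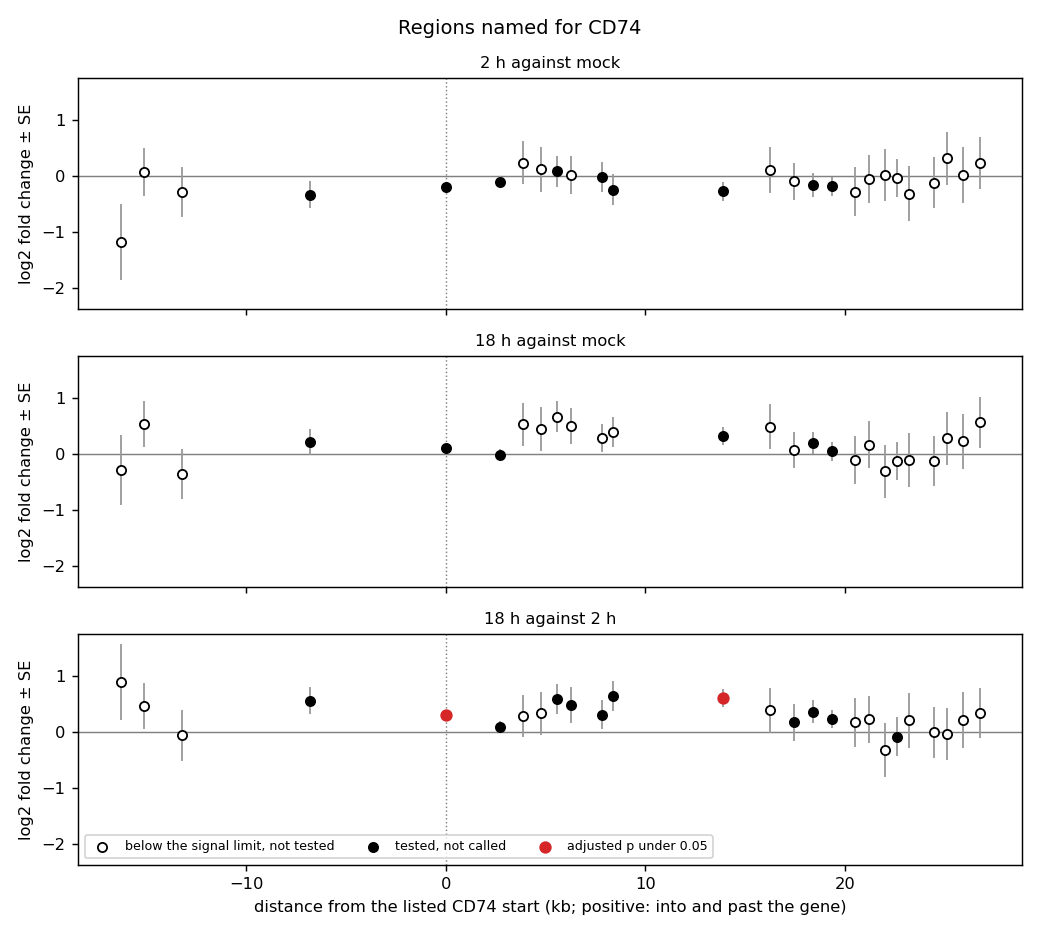
Log2 fold change ± SE of the 26 regions named for CD74 against distance in kb from the CD74 start, for each of the authors' 3 comparisons; open points were under the signal limit and not tested, and red points had an adjusted p under 0.05. At 18 h against 2 h, 21 of 26 points lie above 0, with the called regions at 0 and 13.9 kb (0.30 and 0.60).

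CIITA, the co-activator of CD74, had the opposite lean in this comparison. Of its 26 regions 22 were below 0 at 18 h against 2 h, with a median of -0.29, and of the 13 tested 0 were called and 0 had an unadjusted p under 0.05 (DESeq2, authors' deposited table). In the authors' deposited table its strongest region stood at -0.13 ± 0.07 (SE; adjusted p = 0.478) and its start region at -0.20 ± 0.12 (adjusted p = 0.596). These values share the 2 h libraries with the comparison of 2 h against mock, in which CIITA leaned upward, so the 2 leans are not separate observations. Whether CIITA and CD74 differ as groups of regions was not tested.

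The remaining class II gene and the class I genes gave no call at 18 h against 2 h. All 6 HLA-DRA regions were above 0, the start at 0.24 ± 0.18 (SE; adjusted p = 0.737) and the highest, 19.8 kb past it, at 0.41 ± 0.23 (adjusted p = 0.537, DESeq2), in the authors' deposited table. The HLA-B start had -0.05 ± 0.18, the HLA-C start 0.10 ± 0.12 and the B2M start 0.06 ± 0.10 in the authors' deposited table. A weak HLA-B region 13.0 kb past the start (mean signal 45.2) had the highest value of any tested member, 0.87 ± 0.36, with an adjusted p of 0.210 (DESeq2) in the authors' deposited table. The region shared by TAP1 and PSMB9 had 0.03 ± 0.11 in the authors' deposited table. The one listed at the PSMB9 start, also listed for PSMB8, had 0.12 ± 0.11 in the authors' deposited table. Their 95% intervals ended at 0.24 and 0.34. NLRC5 had -0.13 ± 0.13 at its start and -0.06 ± 0.13 at its strongest region, 11.0 kb into the gene, in the authors' deposited table. Of the 15 NLRC5 regions 7 were above 0. All 6 TAP1 regions were above 0, the start region only until the medians by place or by bin of signal were taken off, and the highest was an untested one 29.8 kb before the start at 1.17 ± 0.49 (unadjusted p = 0.0177) in the authors' deposited table.

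**Figure D5:**
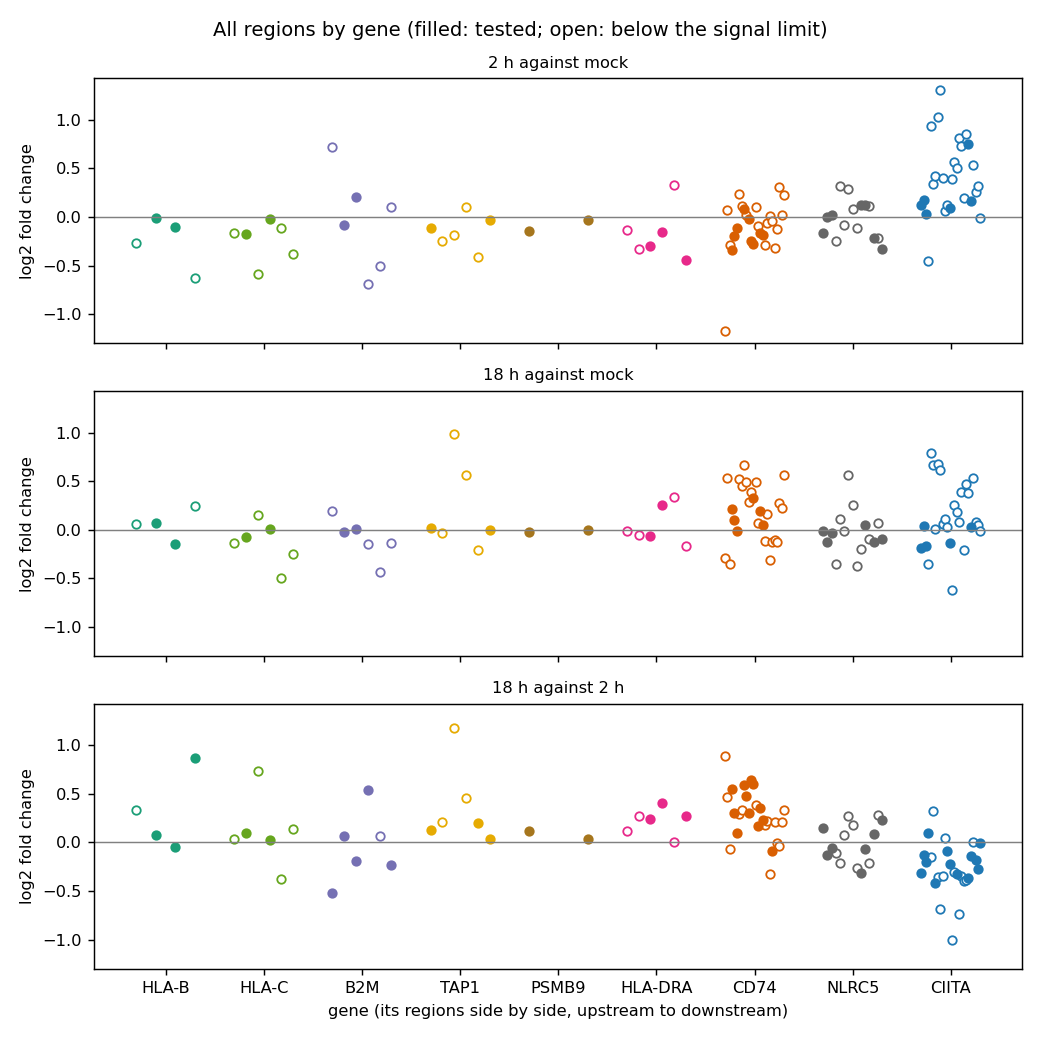
Log2 fold change of all 97 pairs of gene and region in the authors' 3 comparisons, grouped by gene and ordered from upstream to downstream; filled points were tested and open points lie under the authors' signal limit. CD74 points lie mostly above 0 at 18 h against 2 h (21 of 26) and CIITA points mostly below (22 of 26), while most start regions of the other genes lie near 0.

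A wider list of 44 further genes of this pathway gave 3 calls in all, a share of its tested regions no higher than that over the whole table in any comparison. The authors' deposited table held 1 call among 136 tested regions at 2 h against mock and 0 among 95 at 18 h against mock (DESeq2), with 8 and 2 at an unadjusted p under 0.05. These were 0.735% and 0% of the list, against 1.28% and 0.121% of all tested regions. At 18 h against 2 h 2 of 173 regions (1.16%) were called, both lower, against 3.48% of all tested regions. An unadjusted p under 0.05 was reached by 18 of them, or 10.4%, against 11.6% of all tested regions. With so few calls the difference from the whole table was not tested. A region 48.6 kb from the start of JAK1, a kinase of the interferon receptors, rose at 2 h against mock by 0.49 ± 0.13 on the log2 scale (SE; adjusted p = 0.0160) and fell at 18 h against 2 h, with -0.77 ± 0.13 (adjusted p = 1.33e-06, DESeq2), in the authors' deposited table. The other call was 23.5 kb from CREB1, which encodes a factor that binds the cAMP response element, at -0.68 ± 0.21 (adjusted p = 0.0373, DESeq2) in the authors' deposited table. None of the 3 calls was at a class I or class II chain or at a peptide supply gene. By sublist, 0 of 29 tested regions of the 12 peptide supply and loading genes and 0 of 34 of the 12 class II and endosomal genes were called at 18 h against 2 h, with 2 and 3 at an unadjusted p under 0.05 (DESeq2). The PSMB8 start region in the peptide supply list is the one also named for PSMB9. The median over the class II and endosomal list was 0.14 at 18 h against 2 h and -0.14 at 2 h against mock in the authors' deposited table, and both comparisons share the 2 h libraries. At gene starts the smallest p of the list was that of HLA-DPB1, a class II beta chain, with 0.31 ± 0.14 at 18 h against 2 h (adjusted p = 0.296, DESeq2) in the authors' deposited table.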

How the data were processed

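ATAC-seq was done on 6 libraries of A375 cells in 3 groups of 2, grouped by the sample titles. The submitters' processing notes name bcl2fastq 2.17, DESeq2 without a version, and the build hg38. How the authors aligned reads, called peaks and counted, and whether they shifted ends for Tn5, is not given in the sources used here. For each pair of groups the authors deposited 1 table of the comparison, 3 in all, with 0 columns of values per library. Each row holds the mean signal over the 6 libraries (baseMean per the file headers, in DESeq2 the mean of counts divided by size factors), the log2 fold change, its SE and the Wald statistic (a score), and the p-value and adjusted p-value as deposited by the authors.

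Repeat rows of a region (6526, 6522 and 6524) were left out, and a region with several names took the distance to its nearest listed start. Benjamini-Hochberg adjustment of the deposited p-values over the tested regions returned the deposited adjusted p. The planned branch for tables without counts applied, and no model was fitted anew. Intervals are the log2 fold change plus and minus its SE times the normal quantile for 95%. Approximate group means solve the mean signal and both fold changes for 3 groups of equal size; they are exact only for equal size factors. Spans came from RefSeq (GRCh38.p14); starts may differ by 1 base, since the files do not state their counting. Regions named by rule were, for each gene, those nearest the start, with the highest mean signal, with the smallest p, or called. Some others were named outside this rule, most of them for an unadjusted p under 0.05. The genes, lists, motifs and tests were chosen with earlier results of these data known. Calculations used Python 3.11.15, pandas 2.3.3, scipy 1.17.1 and Biopython 1.88, and the centring and adjustment were tested on simulated data. Alternatives were thresholds of 0.01 and 0.1, no signal filter, 3 centrings, distance limits and counting repeat rows. A few genes of the wider and marker lists are not reported here by name.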

Additional observations from a re-analysis of the deposited data

Results flagged for a closer look

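At 2 CD74 regions the signal at 18 h differed from the signal at 2 h by the direct test of the difference. At the CD74 start (chr5:150412568-150413069) the difference in log2 fold change between 18 h and 2 h was 0.30 ± 0.08 (SE; adjusted p = 0.00702, DESeq2) in the authors' deposited table. At 13.9 kb past the start (chr5:150398529-150399030) it was 0.60 ± 0.17 (adjusted p = 0.0128, DESeq2) in the authors' deposited table. Neither region was called against mock at either time, and in both the 2 h mean was below that of mock and the 18 h mean above it. The 2 regions belong to the same locus. They make up 4.08% of the 49 tested members, against 3.48% of all tested regions called in either direction and 0.498% called higher.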

How the results depend on the processing

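The 2 CD74 calls at 18 h against 2 h were kept without the signal filter and under all 3 centrings, with adjusted p from 0.0102 to 0.0445 at the start and from 0.0125 to 0.0262 past the gene. The separate centring within and beyond 1 kb of a start was added after the data were seen. At an adjusted p under 0.01, within 1 kb or within 10 kb of a start, 1 call was left, that of the start region. At 2 h against mock, centring within bins of mean signal gave 1 member call, the CIITA region at 0.27. No setting gave a call at 18 h against mock. Over the whole table centring moved the share of higher calls at 2 h from 67.0% to 81.3% or more. At 18 h against mock it moved the share from 4.48% to 27.3%, with 3 higher calls throughout and 8 lower calls in place of 64.

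Among the 20 regions named by rule, uncalled values near 0 changed sign, none of them becoming a call. Sign changes at the other members are not listed. Centred on the median tested region, the 2 h values were 0.049 (HLA-B, 9.67 kb before the start) and 0.025 (TAP1 and PSMB9), and the 18 h values 0.045 (B2M), 0.034 (NLRC5, 11.0 kb), 0.0086 (HLA-DRA), 0.046 (PSMB9) and 0.065 (TAP1 and PSMB9). Within bins, the 2 h values were 0.0091 (B2M), 0.062 (HLA-B, 9.67 kb) and 0.066 (TAP1 and PSMB9), the 18 h values 0.046 (B2M), 0.052 (NLRC5), 0.0094 (HLA-C), 0.011 (HLA-DRA), 0.059 (PSMB9) and 0.069 (TAP1 and PSMB9), and 18 h against 2 h -0.00096 (TAP1 and PSMB9). Centred by place, the 2 h values were 0.023 (B2M), 0.0065 and 0.032 (HLA-B start and 9.67 kb) and 0.073 (TAP1 and PSMB9), the 18 h values 0.031 (B2M), 0.040 (NLRC5), 0.032 (PSMB9) and 0.051 (TAP1 and PSMB9), and 18 h against 2 h -0.021 (TAP1 and PSMB9). Of 141 values of these 20 regions under the 3 centrings, 114 kept direction and call.

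No paired analysis was possible because the columns carry no values per library; leaving out each replicate was not run for the same reason. Depth per library is unknown, and 47 of the 96 regions fell under the lowest signal limit, where changes of a size like those at CD74 could not be called.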
